A study of Caenorhabditis elegans with 12 samples.

Results

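The genes described here are the numbered nuclear hormone receptor genes of Caenorhabditis elegans, that is, the genes named nhr followed by a number. A gene was included when the platform annotation paired a probe set with that gene alone. nhr-23 and nhr-25 were left out, and the probe set with the highest mean over the 12 arrays stood for each gene. This gave 252 genes among 17118 genes with such a probe set, and all 252 were found by Entrez ID in RefSeq's gene table, which lists 283 genes with nhr names.

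Nuclear receptors are transcription factors with a zinc finger domain that binds DNA and a ligand-binding domain that, in some members, is bound by a steroid, a fatty acid or another small molecule. Nematodes carry a greatly enlarged family, most of it related to the vertebrate fatty acid receptor HNF4. Members with known roles in the worm act in fat and propionate metabolism, detoxification, sterol balance, molting and embryonic development, often in the intestine and together with the Mediator coactivator complex.

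The genotypes compared in the study were all synchronised as L1 larvae with hypochlorite and raised at 25 °C to young adulthood and measured as whole worms. The groups were wild type strain N2, fer-1(hc1ts) in strain BA1 and fer-1(hc24ts) in strain BA24, called hc1 and hc24 below, with 4 arrays each. Both alleles are temperature-sensitive, and fer-1 encodes a ferlin known for its role in sperm maturation, in the fusion of membranous organelles with the cell membrane. A sorter collected 1000 adults per sample, with a gate set against L4 and younger animals. Each strain is a single line, so allele and strain background cannot be told apart. Of 6 preparations per genotype, the 4 that correlated best within the genotype were kept, so the spread between arrays understates that between preparations. Whole-worm RNA does not separate fewer cells of a type from less RNA per cell.

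Values are log2 expression from GCRMA, and array medians over all probe sets were 4.53 to 4.66 in wild type, 4.34 to 4.36 in hc1 and 4.33 to 4.37 in hc24. The fer-1 probe set read between 1.46 and 1.48 in every array, so it gave no check of the alleles. Vitellogenin genes encode the yolk of adult hermaphrodites. Their mean log2 levels per array were 16.11 to 16.26 in wild type, 16.03 to 16.15 in hc1 and 15.88 to 16.10 in hc24. Of the 5 tested, 1 fell in hc1 and 3 fell in hc24, and none rose. The 10 genes listed for early zygotic transcription averaged 3.66 to 3.83 in wild type, 7.53 to 7.72 in hc1 and 7.10 to 7.26 in hc24. Of the 8 tested, 7 rose and 1 fell in each mutant, and end-3 and med-1 were under log2 4 in every array. Among those that rose, pap-3, dct-13, tbx-37 and pes-10 were under log2 4 in every wild type array. They passed the filter described below through the mutant arrays alone and so had to differ, and their calls carry no weight. All 6 tested molting and larval cuticle genes fell in both mutants, and the mean of the 9 measured was 7.83 to 8.44 in wild type, 5.76 to 5.89 in hc1 and 4.84 to 5.02 in hc24. Of 10 intestinal genes, 7 fell in hc1 and 6 in hc24, and none rose. In hc1 all 5 tested body wall muscle genes, 6 of 7 neuron genes and 5 of 7 epidermis genes fell, and 6 of 9 germ line genes rose. In hc24 these counts were 3 of 5, 5 of 7, 4 of 7 and 6 of 9. Going the other way, 1 body wall muscle gene and 2 epidermis genes rose in hc24, and 1 germ line gene fell in hc1. For scale, 43.3% of all tested probe sets rose and 25.9% fell in hc1, and 37.7% rose and 21.7% fell in hc24. Sperm genes averaged 4.96 in hc1 replicate 2, whereas its group's other arrays were at 3.38 to 3.62, against 4.61 to 4.74 in hc24 and 3.38 to 3.68 in wild type, so hc1 replicate 2 stood apart from its group. The part that these tissue and stage differences play in the receptor results was not tested.

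Most receptor genes gave little signal in whole adults. Testing required a log2 value of 4 or more in 4 or more of the 12 arrays, and 79 of the 252 receptor genes (31.3%) met this, against 52.5% of the 22548 probe sets on the array. Here and below, receptor shares count genes by their brightest probe set, whereas the shares beside them count single probe sets, so the units differ. Of the 173 that did not, 165 were under 4 in every array and 8 reached 4 in at least 1 array. Of the 79 tested, 71 were at or over 4 in all 12 arrays. A gene that passed through 1 group alone had to differ between groups, so counts over the 79 describe these genes and not the whole family. Among the 79, 14 were measured on probe sets whose suffix marks probes shared with other transcripts, and nhr-144 is listed by RefSeq as a pseudogene.

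Chromosome V carried 164 of the 252 genes, and 36 of those (22%) were tested. On the other chromosomes 43 of 88 (48.9%) were tested. Chromosome IV had 28 genes with 15 tested, chromosome X had 22 with 12, chromosome I had 17 with 4, chromosome II had 13 with 7 and chromosome III had 8 with 5.

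**Figure D1:**
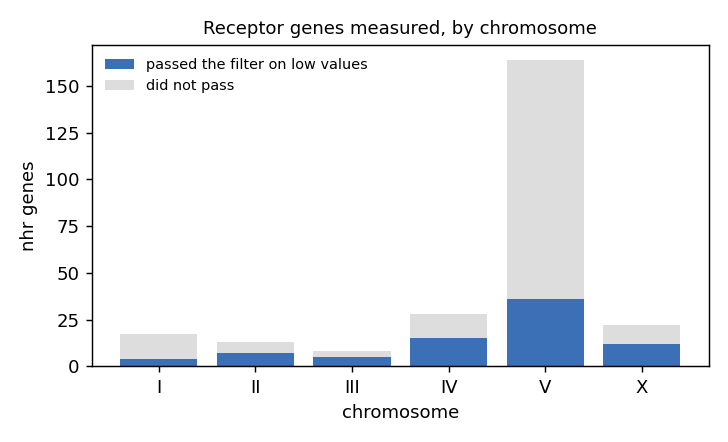
Number of numbered nuclear hormone receptor genes on each chromosome, with the genes that passed the filter on low values in blue and those that did not in grey. Chromosome V held 164 genes, of which 36 passed.

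The comparison of hc1 with wild type asked which receptor transcripts differed in the hc1 strain. In limma's fit over all 11833 tested probe sets, with Benjamini-Hochberg adjusted p under 0.05, 45 of the 79 receptor genes (57%) differed, against 69.2% of all tested probe sets. Of these, 16 rose (20.3%, against 43.3% of all tested) and 29 fell (36.7%, against 25.9%), and with each array centred on its median instead 36 rose and 17 fell. At least 2-fold changes were seen in 5 that rose (6.33%, against 6.38%) and 12 that fell (15.2%, against 10.8%). The 4 hc1 arrays and the 4 wild type arrays did not overlap for 38 receptor genes (48.1%, against 64.9%). The median log2 difference of the 79 genes was -0.09 and that of all tested probe sets was 0.14. Median centring raised both, to 0.16 and 0.40. It shifts all probe sets of an array alike, so it cannot change the gap between these medians. With cyclic loess scaling the medians were -0.18 for the receptor genes and -0.03 for all tested probe sets.

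The comparison of hc24 with wild type used the same wild type arrays, so its values are given beside those of hc1 and are not independent of them. Here 38 of 79 receptor genes differed (48.1%, against 59.4% of all tested probe sets). Of these, 14 rose (17.7%, against 37.7%) and 24 fell (30.4%, against 21.7%), and after median centring 32 rose and 13 fell. Only nhr-2 and nhr-114 rose at least 2-fold (2.53%, against 5.27%), and 6 fell at least 2-fold (7.59%, against 9.52%). The hc24 arrays and the wild type arrays were fully apart for 32 genes (40.5%, against 55.2%). The median log2 difference of the receptor genes was -0.14, against 0.12 for all tested probe sets, and median centring raised these to 0.12 and 0.38.

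Between hc1 and hc24, 17 of 79 receptor genes differed (21.5%, against 30.7% of all tested probe sets). In hc1, 9 were higher (11.4%, against 18.6%) and 8 were lower (10.1%, against 12.2%). None was at least 2-fold higher in hc1 (against 2.17%), and nhr-114 and nhr-137 were at least 2-fold lower (2.53%, against 3.41%). Arrays did not overlap for 18 genes (22.8%, against 34.6%). The median log2 difference was 0.05, against 0.07 for all tested probe sets. Without hc1 replicate 2, 14 receptor genes rose and 24 fell in hc1 against wild type, and 8 were higher and 7 lower in hc1 against hc24.

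**Figure D2:**
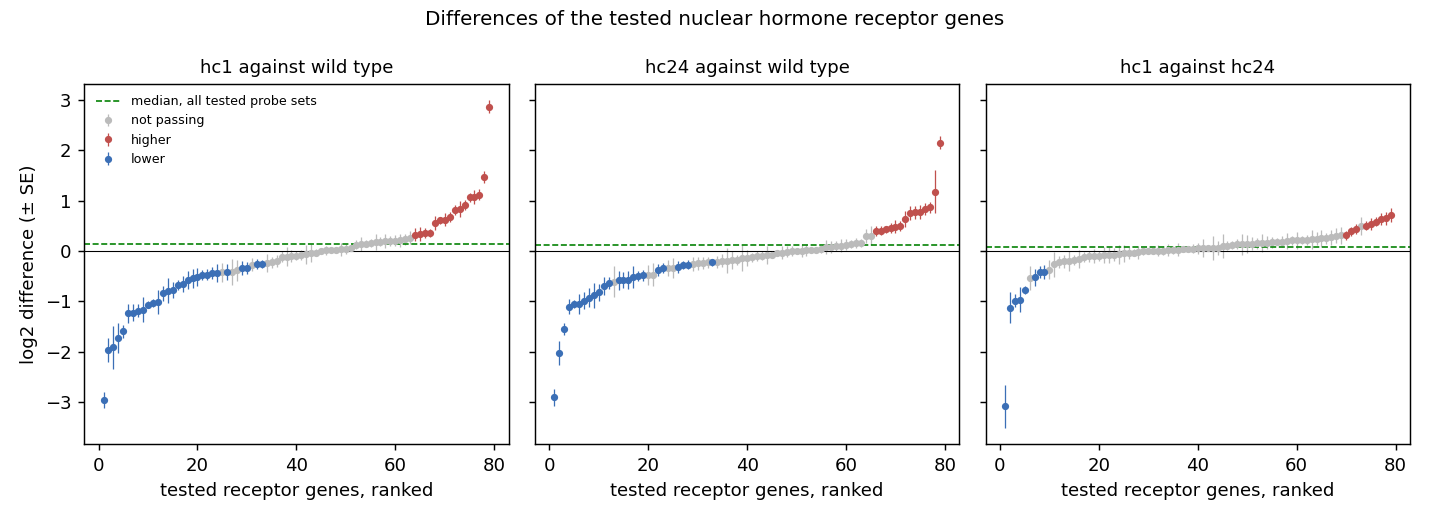
Log2 difference of each of the 79 tested receptor genes with its standard error, ranked within each comparison. Red points were higher and blue points lower at an adjusted p under 0.05, grey points did not pass, and the dashed green line is the median of all 11833 tested probe sets; more receptor genes fell (29 and 24) than rose (16 and 14) against wild type on the deposited scale.

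The receptor gene with the largest rise in both mutants was nhr-2, which encodes a receptor present in the nuclei of early embryos. Array values below are in order of replicate number (3, 4, 5 and 6 in wild type, 1, 2, 5 and 6 in hc1, and 1, 2, 3 and 5 in hc24). Its log2 levels were 7.43, 8.13, 7.92 and 8.19 in wild type, 10.84, 10.71, 10.83 and 10.74 in hc1, and 10.10, 10.02, 10.05 and 10.10 in hc24. No array of any group overlapped with another group, and hc1 was the highest. The rise was 7.27-fold in hc1 (log2 2.86 ± 0.13 SE, adjusted p = 2.65e-09) and 4.43-fold in hc24 (log2 2.15 ± 0.13 SE, adjusted p = 3.55e-08), and hc1 exceeded hc24 by 1.64-fold (adjusted p = 0.00144). Further tested probe sets of nhr-2 rose by log2 3.07 and 3.33 in hc1 and by 2.45 and 2.82 in hc24. The zygotic genes given above were higher in the same arrays, and their relation to nhr-2 was not tested.

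Rises of 1.70-fold to 2.77-fold in at least 1 mutant were shared by nhr-22, nhr-13, nhr-161, nhr-154, nhr-71, nhr-243, nhr-12 and nhr-65. Levels of nhr-22 were 6.51, 6.39, 6.14 and 6.68 in wild type, 8.12, 7.63, 7.97 and 7.88 in hc1, and 7.29, 7.35, 7.12 and 7.30 in hc24. All 3 groups were apart, with hc24 between wild type and hc1. The rise of nhr-22 was 2.77-fold in hc1 (adjusted p = 5.85e-07) and 1.78-fold in hc24 (adjusted p = 9.73e-05), and the alleles differed by 1.55-fold (adjusted p = 0.00192). The same order was found for nhr-154, which read 7.57, 7.68, 7.56 and 7.74 in wild type, 8.80, 8.82, 8.70 and 8.50 in hc1, and 8.07, 8.0, 8.12 and 8.33 in hc24. It rose 2.1-fold in hc1 (adjusted p = 6.21e-07) and 1.41-fold in hc24 (adjusted p = 0.000518), with a 1.49-fold difference between the alleles (adjusted p = 0.000416). For nhr-71, one of the 5 brightest receptor probe sets, wild type read 9.52, 9.52, 9.45 and 9.67, hc1 read 10.53, 10.32, 10.44 and 10.50, and hc24 read 10.09, 10.04, 9.66 and 9.99. The hc1 arrays were apart from both other groups, while 1 hc24 array lay within the wild type range. nhr-71 rose 1.87-fold in hc1 (adjusted p = 4.16e-06) and 1.32-fold in hc24 (adjusted p = 0.00294), and its second probe set rose by log2 0.93 and 0.57.

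Further genes rose in both mutants. nhr-161 read 5.93, 5.92, 5.58 and 6.46 in wild type, 6.97, 6.98, 7.13 and 7.08 in hc1, and 6.76, 6.63, 6.81 and 6.75 in hc24. Both mutants lay above every wild type array, by 2.1-fold in hc1 (adjusted p = 2.97e-05) and 1.70-fold in hc24 (adjusted p = 0.000581). nhr-243 rose 1.78-fold in hc1 and 1.55-fold in hc24, and nhr-12 rose 1.77-fold and 1.31-fold, and the hc24 value did not pass under cyclic loess scaling (adjusted p = 0.0574) or with the replicate number as a block (0.0548). hc1 exceeded hc24 by 1.35-fold for nhr-12 (adjusted p = 0.00569). nhr-65 rose 1.47-fold in hc1 (log2 0.55) and 1.70-fold in hc24 (log2 0.76). Its second probe set differed the same way, by log2 0.49 and 0.52, but was more spread and did not pass in either (adjusted p = 0.184 and 0.176). nhr-202 rose 1.68-fold in hc24 (adjusted p = 0.000554), and its 1.26-fold rise in hc1 (adjusted p = 0.0441) was lost in 12 of the 22 alternative settings that gave a value. nhr-202 was 1.33-fold lower in hc1 than in hc24 (adjusted p = 0.0392), a call lost in 11 of the 22.

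**Figure D3:**
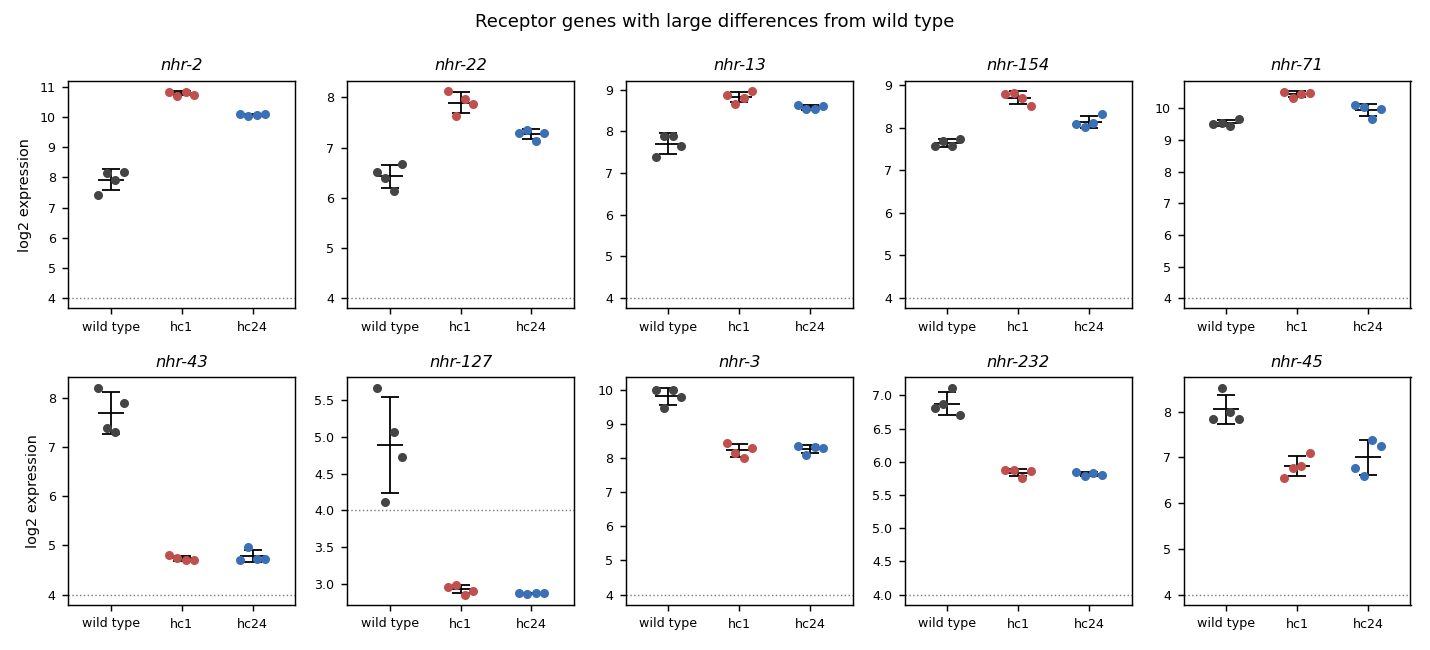
Log2 level of 10 receptor genes in each array (points), with the group mean and SD (bars), n = 4 per group. The dotted line marks log2 4, the minimum used for testing; the upper row shows genes that rose in both mutants and the lower row genes that fell in both.

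The largest fall in both mutants was that of nhr-43. Its levels were 8.20, 7.38, 7.30 and 7.89 in wild type, 4.79, 4.74, 4.69 and 4.71 in hc1, and 4.71, 4.97, 4.72 and 4.73 in hc24. Every mutant array was below every wild type array, and the mutants overlapped. The fall was 7.77-fold in hc1 (log2 -2.96 ± 0.17 SE, adjusted p = 1.42e-08) and 7.51-fold in hc24 (adjusted p = 1.59e-08). nhr-127 was measured above log2 4 in wild type only, at 5.67, 4.12, 5.06 and 4.72, while hc1 read 2.85 to 2.99 and hc24 2.86 to 2.87. With the mutants held at 4, the fall of nhr-127 was at least 1.86-fold in each (adjusted p = 1.25e-05 and 1.28e-05). This gene passed the filter through the wild type arrays alone and so had to differ, and its call carries no weight. nhr-127 is nevertheless included in the counts above of genes that fell, fell at least 2-fold or did not overlap with wild type. Those 2-fold counts were taken without holding values at 4.

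Falls of about equal size in both mutants were also found for nhr-3 and nhr-232. nhr-3 read 9.48 to 10.01 in the 4 wild type arrays, 8.44, 8.15, 8.01 and 8.31 in hc1, and 8.37, 8.10, 8.33 and 8.30 in hc24. It fell 3.02-fold in hc1 (adjusted p = 3.47e-07) and 2.93-fold in hc24 (adjusted p = 4.94e-07), with the mutants overlapping, and its second probe set fell by log2 1.69 and 1.59. nhr-232 read 6.81, 6.88, 7.12 and 6.71 in wild type, 5.87, 5.87, 5.76 and 5.86 in hc1, and 5.85, 5.78, 5.84 and 5.80 in hc24. Its fall was 2.06-fold and 2.08-fold (adjusted p = 2.71e-07 and 2.44e-07). The molting genes were lower in the same arrays, and their relation to these falls was not tested.

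The list of receptors for sterol, xenobiotic, pathogen or iron responses also held nhr-69, known for another role, and had 7 tested genes. Of these, 1 rose and 5 fell in hc1, and none rose and 4 fell in hc24. The falls in both mutants include nhr-69. Over all tested probe sets, 43.3% rose and 25.9% fell in hc1 and 37.7% rose and 21.7% fell in hc24. nhr-8, which acts in cholesterol balance and xenobiotic resistance, read 9.87, 9.51, 9.84 and 9.73 in wild type, 8.88, 8.83, 8.87 and 9.0 in hc1, and 8.91, 8.94, 8.43 and 8.21 in hc24. All mutant arrays were below wild type, by 1.80-fold in hc1 (adjusted p = 0.000289) and 2.16-fold in hc24 (adjusted p = 4.44e-05). nhr-45, which takes part in detoxification when mitochondria are impaired, read 7.85, 8.53, 7.99 and 7.84 in wild type, 6.55, 6.78, 6.81 and 7.09 in hc1, and 6.78, 6.59, 7.39 and 7.25 in hc24. The mutants again lay below every wild type array, by 2.37-fold in hc1 (adjusted p = 0.000128) and 2.07-fold in hc24 (adjusted p = 0.000654). nhr-69, a partner of the Smad DAF-8 in insulin regulation, fell 1.71-fold in hc1 (adjusted p = 0.00127) and 1.98-fold in hc24 (adjusted p = 0.000303). nhr-42 fell 1.50-fold in hc24 (adjusted p = 0.0176, and 0.1 with median centring) and read 1.34-fold lower in hc1 (adjusted p = 0.0586). In hc1, nhr-14, which regulates iron uptake, and nhr-57, a target of the hypoxia factor HIF-1, fell 1.20-fold and 1.26-fold (adjusted p = 0.0306 and 0.0448), and both calls were lost with median centring. The gene that rose was nhr-86, which senses a Pseudomonas metabolite, by 1.28-fold in hc1 (adjusted p = 0.00277, lost with cyclic loess scaling at 0.113). nhr-176, known for the response to thiabendazole, read 2.73 to 2.82 in all 12 arrays and was not tested. The intestinal genes, which also fell, were lower in the same arrays, at a mean of 11.57 to 11.84 in wild type, 11.08 to 11.14 in hc1 and 11.25 to 11.33 in hc24, and their part in these falls was not tested.

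Of the 7 tested receptors of lipid and fasting metabolism, 1 was higher and 1 lower in each mutant (over all tested probe sets, 43.3% and 25.9% in hc1 and 37.7% and 21.7% in hc24). nhr-49, a regulator of fat desaturation and the fasting response, was the brightest receptor probe set and read 12.25, 11.80, 12.28 and 12.12 in wild type, 12.01, 12.12, 11.97 and 12.03 in hc1, and 11.93, 11.88, 11.70 and 12.02 in hc24. The groups overlapped, and the log2 differences were -0.08 ± 0.10 SE in hc1 (adjusted p = 0.519) and -0.23 ± 0.10 SE in hc24 (adjusted p = 0.0779). Its second probe set fell by log2 0.25 in hc24. nhr-66, a partner of NHR-49 in sphingolipid metabolism, differed by log2 0.03 and 0.01 (adjusted p = 0.845 and 0.971), while its second probe set rose by 0.32 in hc1 (adjusted p = 0.0217).

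A different result was obtained for nhr-13, another partner of NHR-49, which rose in both mutants. It read 7.37, 7.90, 7.90 and 7.66 in wild type, 8.87, 8.66, 8.79 and 8.96 in hc1, and 8.62, 8.53, 8.53 and 8.62 in hc24. The rise was 2.16-fold in hc1 (adjusted p = 2.64e-06) and 1.82-fold in hc24 (adjusted p = 3.0e-05). nhr-64, a relative of HNF4, read 8.19, 7.76, 8.26 and 7.81 in wild type, 7.81, 7.91, 7.87 and 8.0 in hc1, and 7.24, 7.23, 7.57 and 7.44 in hc24. Only the hc24 arrays were apart, by a 1.55-fold fall from wild type (adjusted p = 0.00072) and 1.44-fold below hc1 (adjusted p = 0.00557). nhr-80, which controls the stearoyl desaturases, fell 1.26-fold in hc1 (adjusted p = 0.0259) but not after median centring (adjusted p = 0.534). nhr-28 and nhr-76, the latter known for serotonin-driven fat loss, did not pass in either mutant.

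Genes that NHR-49 and its Mediator partner MDT-15 are known to drive were examined beside them. Of 8 tested, 5 fell and none rose in each mutant. The shares over all tested probe sets were 25.9% that fell and 43.3% that rose in hc1, and 21.7% and 37.7% in hc24. The fatty acid desaturase fat-5 read 11.47, 11.09, 11.33 and 11.15 in wild type, 10.72, 10.79, 10.81 and 10.99 in hc1, and 9.40, 9.34, 9.57 and 9.43 in hc24. It fell 1.35-fold in hc1 (adjusted p = 0.00134, and 0.0728 with median centring) and 3.54-fold in hc24 (adjusted p = 6.15e-09), with the 3 groups apart. fat-6 and fat-2, also desaturases, fell 1.47-fold and 1.46-fold in hc1 and 1.55-fold and 1.82-fold in hc24. acs-2, an acyl-CoA synthetase induced by fasting, did not pass (adjusted p = 0.805 and 0.438), and fat-7 was not tested because of low values. mdt-15 itself differed by log2 -0.22 and -0.16 (adjusted p = 0.169 and 0.333). The relation of these genes to nhr-49 and mdt-15 was not tested.

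Mediator links nuclear receptors to RNA polymerase, and 22 of its 26 listed subunit genes were tested. In hc1, 15 rose and none fell, against 43.3% and 25.9% of all tested probe sets, and with cyclic loess 10 rose and 1 fell. The hc1 values had a median log2 difference of 0.42 against 0.14 for all tested probe sets. In hc24, 11 rose and 2 fell (against 37.7% and 21.7%), with a median of 0.24 against 0.12, and 6 rose with cyclic loess and 17 with median centring. The largest rise in hc1 was that of sur-2, at 1.62-fold (adjusted p = 2.67e-06). The genes that fell in hc24 were let-19 and dpy-22, subunits of the kinase module, by 1.40-fold and 1.79-fold (adjusted p = 0.0138 and 0.00454), and the let-19 call was lost with median centring and with the replicate number as a block (adjusted p = 0.0866 to 0.159).

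Of 3 receptors of propionate and methionine metabolism, nhr-114 and nhr-68 were lower in hc1 than in hc24, and nhr-10 did not pass (adjusted p = 0.174). nhr-114, which supports the germ line by driving the methionine and S-adenosylmethionine cycle, read 5.93, 6.01, 6.01 and 6.03 in wild type, 3.35, 4.34, 5.63 and 3.03 in hc1, and 7.10, 7.49, 6.83 and 7.27 in hc24. The groups did not overlap: hc1 was below wild type and hc24 above it, and the hc1 arrays were the most spread of any tested receptor gene, with an SD of 1.17 (n = 4). nhr-114 fell 3.76-fold in hc1 (log2 -1.91 ± 0.43 SE, adjusted p = 0.00163) and rose 2.26-fold in hc24 (log2 1.18 ± 0.43 SE, adjusted p = 0.0308), so that hc1 was 8.51-fold below hc24 (adjusted p = 0.000161). Of the hc1 arrays, 2 were under log2 4, and with such values set to 4 the differences were -1.50 in hc1 against wild type and -2.68 in hc1 against hc24. Without hc1 replicate 5 the difference from wild type was -2.42. The rise in hc24 lost its call in 9 of 23 alternatives, with adjusted p between 0.0515 and 0.114, and in a fit of wild type and hc24 alone its adjusted p was 6.21e-05.

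The genes of the methionine cycle, or known to depend on NHR-114, had 7 tested members. In hc24 all 7 rose, against 37.7% of all tested probe sets, but only sams-1 and pmp-5 did with cyclic loess scaling. In hc1 1 rose and 2 fell (5 and 2 with median centring, 1 and 4 with cyclic loess). The shares of all tested probe sets in hc1 were 43.3% that rose and 25.9% that fell. sams-1, the S-adenosylmethionine synthetase, read 11.74, 11.51, 11.37 and 11.49 in wild type, 9.76, 9.94, 9.57 and 9.34 in hc1, and 12.79, 12.91, 12.91 and 12.87 in hc24. It lay in the same order as nhr-114, with the 3 groups apart. The fall in hc1 was 3.66-fold (adjusted p = 3.99e-08), the rise in hc24 2.54-fold (adjusted p = 9.5e-07), and the difference between alleles 9.30-fold (adjusted p = 3.68e-09). pmp-5, a peroxisomal-type ABC transporter, fell 1.93-fold in hc1 and rose 2.11-fold in hc24 (adjusted p = 2.08e-06 and 7.8e-07). The relation of these genes to nhr-114 was not tested.

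nhr-68, which with nhr-10 turns on the propionate breakdown shunt, was lower in hc1 alone. It read 10.20, 9.85, 10.11 and 9.68 in wild type, 8.75, 9.01, 8.67 and 8.65 in hc1, and 9.79, 9.88, 9.87 and 9.51 in hc24. The hc1 arrays lay below all others, while wild type and hc24 overlapped. The fall was 2.28-fold in hc1 (log2 -1.19, adjusted p = 5.33e-06), the log2 difference in hc24 was -0.20 (adjusted p = 0.198), and hc1 was 1.99-fold below hc24 (adjusted p = 9.62e-05). nhr-10 differed by log2 0.17 in hc1 (adjusted p = 0.366) and -0.14 in hc24 (adjusted p = 0.482), although its second probe set rose by 0.68 and 0.42.

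All 5 genes of the propionate shunt fell in hc1 (4 with median centring), against 25.9% of all tested probe sets. In hc24 1 rose and 1 fell (3 and 1 with median centring, 0 and 2 with cyclic loess), against 37.7% and 21.7%. acdh-1, the acyl-CoA dehydrogenase of the shunt, read 14.18, 14.07, 14.11 and 14.02 in wild type, 12.63, 12.92, 12.67 and 12.57 in hc1, and 14.22, 14.24, 14.09 and 13.97 in hc24. As with nhr-68, only hc1 was apart, with a 2.63-fold fall (adjusted p = 3.7e-08) and a log2 difference of 0.03 in hc24 (adjusted p = 0.75). hphd-1 fell 2.32-fold in hc1 (adjusted p = 3.12e-08) and did not pass in hc24 (adjusted p = 0.121). Between the alleles, 4 of the 5 were lower in hc1 (against 12.2% of all tested probe sets). alh-8 did not share this pattern and fell in both, by 1.47-fold in hc1 and 1.61-fold in hc24. The mean of the intestinal genes given above was also lowest in hc1. Neither its part here nor the relation of the shunt genes to nhr-68 was tested.

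**Figure D4:**
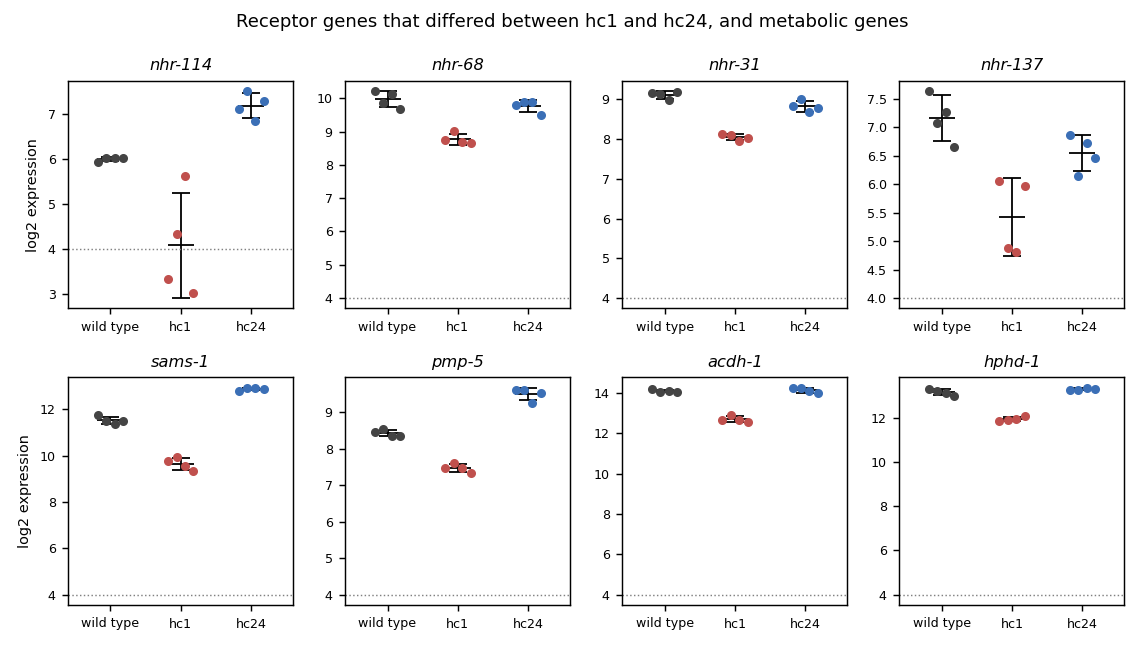
Log2 level per array (points) with group mean and SD (bars, n = 4 per group) of 4 receptor genes that were lower in hc1 than in hc24 (upper row) and of 4 metabolic genes (lower row). The dotted line marks log2 4. nhr-114, sams-1 and pmp-5 lay below wild type in hc1 and above it in hc24, while nhr-68, acdh-1 and hphd-1 were lower in hc1 alone. The metabolic genes shown were picked, and others on their lists differed. Of the 7 tested methionine cycle genes, 1 rose and 4 did not pass in hc1. alh-8 of the propionate shunt fell in both mutants.

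Other receptor genes also separated the alleles. nhr-137 read 7.63, 7.08, 7.27 and 6.65 in wild type, 6.05, 4.87, 4.80 and 5.97 in hc1, and 6.86, 6.15, 6.72 and 6.47 in hc24. It fell 3.33-fold in hc1 (adjusted p = 0.000273), did not pass in hc24 (adjusted p = 0.101), and was 2.18-fold lower in hc1 than in hc24 (adjusted p = 0.0141), although the hc1 arrays spread over more than 1 log2 unit. nhr-31, needed with the proton pump of the excretory cell for the shape of its tubes, read 9.15, 9.13, 8.98 and 9.18 in wild type, 8.12, 8.10, 7.95 and 8.02 in hc1, and 8.83, 9.0, 8.67 and 8.79 in hc24. Its hc1 arrays were below all others, by 2.09-fold from wild type (adjusted p = 1.98e-07) and 1.72-fold from hc24 (adjusted p = 1.5e-05). The 1.22-fold fall in hc24 (adjusted p = 0.00791) was lost with median centring (adjusted p = 0.716). nhr-130 read 5.93, 5.62, 5.79 and 5.79 in wild type, 3.94, 4.58, 4.66 and 5.04 in hc1, and 5.09, 5.05, 5.09 and 5.09 in hc24. It fell 2.34-fold in hc1 (adjusted p = 5.32e-05) and 1.62-fold in hc24 (adjusted p = 0.00424), and the 1.44-fold difference between alleles (adjusted p = 0.0372) was lost in 9 of the 22 alternatives that gave a value.

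Of 11 receptors with developmental roles, 6 were tested. In hc1, 3 rose and 1 fell (against 43.3% and 25.9% of all tested probe sets), and in hc24 1 rose and 2 fell (against 37.7% and 21.7%). Besides nhr-2 and nhr-31, the tested genes included nhr-40, which acts in muscle development and movement. nhr-40 read 6.91, 6.46, 6.35 and 6.42 in wild type, 7.09, 6.83, 6.70 and 6.80 in hc1, and 6.24, 6.32, 6.04 and 6.23 in hc24. The hc1 arrays overlapped wild type by a single wild type array, and hc24 was below both. nhr-40 rose 1.25-fold in hc1 (adjusted p = 0.0348) and fell 1.25-fold in hc24 (adjusted p = 0.0391), calls that were lost in 10 and 9 of the 23 alternatives. The 1.57-fold difference between hc1 and hc24 (adjusted p = 0.00178) kept its call in all 23, and a second probe set gave the same calls. nhr-48, related to the vitamin D and xenobiotic receptors, rose 1.27-fold in hc1 (adjusted p = 0.00825, lost with cyclic loess at 0.07). nhr-6, the worm NR4A receptor needed for the spermatheca, did not pass in any comparison. nhr-1 did not pass on its brightest probe set, while its second was higher in hc1 than in hc24 (log2 0.38, adjusted p = 0.034). nhr-67, the tailless-type receptor, and nhr-85, related to Rev-erb, were under log2 3 in all arrays, as were nhr-60 and nhr-41. nhr-91, related to the germ cell nuclear factor, reached 4.88, 3.98, 4.08 and 3.91 in wild type and 2.39 to 2.41 in both mutants, and had too few arrays over 4 to be tested.

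The receptors that carry other names and the hormone route of DAF-12 gave further values. sex-1, a receptor that takes part in sensing X chromosome number in the embryo, read 9.90, 9.85, 9.88 and 9.92 in wild type, 10.94 to 11.20 in the 4 hc1 arrays, and 10.47, 10.59, 10.71 and 10.49 in hc24. The groups were apart in the same order as for nhr-2 and nhr-22, with a rise of 2.23-fold in hc1 (adjusted p = 4.27e-08) and 1.60-fold in hc24 (adjusted p = 6.71e-06). daf-12, the receptor for dafachronic acids, fell 1.57-fold in hc1 (adjusted p = 0.00879, and 0.064 with median centring) and did not pass in hc24 (adjusted p = 0.375). fax-1, odr-7 and unc-55, receptors of neurons, were not tested because of low values.

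Of 9 genes that make, move or act with dafachronic acids, 4 were tested, and 3 of these fell in each mutant. Over all tested probe sets, 25.9% fell in hc1 and 21.7% in hc24. daf-36, the oxygenase of the first step from cholesterol, read 9.11, 8.55, 8.71 and 8.75 in wild type, 7.57, 7.46, 7.52 and 7.93 in hc1, and 8.08, 8.06, 7.94 and 8.16 in hc24. It fell 2.24-fold in hc1 (adjusted p = 5.47e-06) and 1.65-fold in hc24 (adjusted p = 0.000375), with every mutant array below wild type. strm-1, a sterol methyltransferase that diverts the precursors, was at 6.06, 5.20, 5.69 and 6.43 in wild type and at 2.52 to 2.64 in the mutants, at least 3.60-fold lower in each. strm-1 passed the filter through the wild type arrays alone, so its call carries no weight, and without it 2 of 3 tested genes fell. ncr-1, a sterol transporter related to NPC1, fell 2.05-fold in both. emb-8, a P450 reductase, rose 1.14-fold in hc24 (adjusted p = 0.0384), a call lost in 11 alternatives.

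For 15 receptor genes more than 1 probe set was tested. Calls were the same for the probe sets of a gene in 11 of 15 genes in hc1 against wild type, 10 in hc24 against wild type and 14 in hc1 against hc24, and in no gene were they opposite. nhr-46, one of the 5 brightest, fell 1.49-fold in hc1 and 1.77-fold in hc24 on its brightest probe set (adjusted p = 0.00933 and 0.00128), while the second differed by log2 -0.03 in hc1.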

How the data were processed

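The values deposited by the authors are log2 expression levels of probe sets on 12 Affymetrix arrays. Affymetrix Expression Console and GCRMA produced them, per the submitters' processing notes; GCRMA corrects background from probe sequence and normalises across arrays. No software version is stated in these sources. Gene names came from the platform annotation. RefSeq's table of assembly WBcel235 gave chromosomes and gene order; the build behind the annotation is unstated, so no coordinates are printed.

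Groups came from the sample titles. Of 22548 probe sets that are not controls, 11833 with log2 at least 4 in at least 4 of 12 arrays were fitted with limma 3.58.1 in R 4.3.3. The model had 1 mean for each genotype, used no covariates and moderated the variance by empirical Bayes. All p-values are two-sided, from this fit, adjusted by Benjamini-Hochberg within each comparison over all tested probe sets, and a call is an adjusted p under 0.05. Rose and fell refer to calls. Folds are ratios of group means on the log2 scale; a group with a mean under 4 was held at 4 and its fold given as at least. The number of arrays limits precision. The fit was tested on simulated data.

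Receptor genes named were, among called genes whose groups were fully apart, for each mutant the 8 largest changes each way, between mutants the 5 largest each way, the 5 brightest, and members of 4 role lists. The receptor genes, role lists, pathway lists and markers were chosen with earlier results of these data known. nhr-44, nhr-55, nhr-144, nhr-152, nhr-153, nhr-181 and nhr-212 are named after their values were seen. The titles call samples biological replicates.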

Additional observations from a re-analysis of the deposited data

Results flagged for a closer look

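nhr-114 and nhr-40 moved in opposite directions in the mutants, and for both the test of hc1 against hc24 passed. For nhr-114 the log2 difference of hc1 minus hc24 was -3.09 (limma adjusted p = 0.000161), from -1.91 in hc1 and 1.18 in hc24 against wild type. For nhr-40 it was 0.65 (adjusted p = 0.00178), from 0.32 in hc1 and -0.32 in hc24.

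Single arrays that lay far from the other 3 of their group by Dixon's ratio, were found in 9 groups, and chance gives about 5% of all groups examined. In wild type, replicate 6 was high for nhr-1 (8.25, others 8.13 to 8.14) and nhr-6 (7.40, others 6.88 to 6.95), replicate 4 was low for nhr-66 (10.74, others 11.18 to 11.25), and replicate 3 was low for nhr-114 (5.93, others 6.01 to 6.03). In hc1, replicate 5 was low for nhr-42 (5.83, others 6.07 to 6.11) and for nhr-232 (5.76, others 5.86 to 5.87). In hc24, replicate 2 was high for nhr-43 (4.97, others 4.71 to 4.73) and low for nhr-130 (5.05, others at 5.09), and replicate 5 was high for nhr-80 (7.49, others 7.12 to 7.13). No cause was tested for these arrays.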

How the results depend on the processing

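With each array centred on its median, hc1 against wild type gave 36 higher, 17 lower and a median of 0.16, and hc24 against wild type gave 32 higher, 13 lower and a median of 0.12, both medians being negative on the deposited scale. The receptor median minus that of all tested probe sets ranged from -0.31 to -0.13 in hc1 and from -0.33 to -0.17 in hc24 over the settings. Cyclic loess gave 12 higher and 33 lower in hc1, and 13 and 28 in hc24. Without the filter on low values, 76 receptor genes were higher in hc1 and 32 in hc24; of 62 untested genes called higher in hc1, 48 differed by under 0.1 on the log2 scale. Array weights gave 14 higher and 10 lower in hc1 against hc24. Leaving out 1 array gave 14 to 17 higher and 24 to 30 lower in hc1, 13 to 14 and 21 to 28 in hc24, and 8 to 11 and 5 to 8 in hc1 against hc24, the 5 being without hc1 replicate 1 or without hc24 replicate 5. Deviations of same-numbered arrays correlated between -0.07 and 0.08 in 7 pairs, and those of differently numbered arrays between -0.24 and 0.23 in 41 pairs. So few pairs cannot show whether samples with the same number were prepared together. With the replicate number as a block, 16 rose and 27 fell in hc1, 13 and 27 in hc24, and 10 and 6 in hc1 against hc24. Of the results of 38 named receptor genes in 3 comparisons, 70 kept their side of the threshold under every alternative that gave a value (22 or 23) and 0 reversed; 18 lost a call in at least 1 and 26 gained one. Alternatives for the pathway lists were chosen after seeing the data. For 165 receptor genes every array was near background, which limits any difference.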

Other observations

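Receptor genes with low values showed differences that were not tested. nhr-44 read 4.95, 3.51, 4.38 and 3.42 in wild type and 2.32 to 2.39 in both mutants, so that all mutant arrays lay below all wild type arrays. nhr-152 read 4.67, 4.55, 4.54 and 3.73 in wild type, 3.47, 3.65, 2.76 and 3.63 in hc1, and 3.58, 3.64, 3.57 and 3.77 in hc24. nhr-181 went the other way, at 2.54 to 2.61 in wild type, 4.36, 4.23, 3.06 and 4.10 in hc1, and 3.62, 3.47, 2.91 and 2.78 in hc24. Values under log2 4 are near background and give only bounds.

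There are 5 pairs of tested receptor genes next to each other in RefSeq's gene order. On chromosome V, nhr-55, nhr-130 and nhr-212 follow each other, and their log2 differences were -1.17, -1.22 and -0.52 in hc1 and -0.19, -0.70 and -0.57 in hc24. All passed except nhr-55 in hc24 (limma adjusted p = 0.513). The neighbours nhr-154 and nhr-153, also on V, moved in opposite directions, by 1.07 and -0.66 in hc1 and by 0.49 and -0.58 in hc24, and all of these passed, although the hc1 mean of nhr-153 was under log2 4.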
